A study of Mus musculus with 58 samples.

Results

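The 8 genes described here encode proteins of the Z-disc or proteins that muscle makes in response to mechanical load: Csrp3, Ankrd1, Ankrd2, Ankrd23, Xirp1, Xirp2, Actn2 and Actn3. Their probe sets were found by gene symbol in the platform annotation of the arrays. Each of the 8 had 1 probe set among the 25206 on the array, of which 23185 carried a gene symbol. Their levels were compared between the tumour-bearing and the sham-operated mice within each cohort, and between both muscles of the sham mice.

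The animals were adult female NSG mice, an immunodeficient strain that lacks mature lymphocytes and accepts human tissue. In the PDX mice (patient-derived xenograft), a piece of pancreatic ductal adenocarcinoma resected from a cachectic patient had been placed on the pancreas; the sham mice had surgery without an implant. Cachexia is a wasting of muscle and fat. Each of the 4 cohorts carried the tumour of a different patient, so the PDX mice of a cohort share 1 tumour and a difference between cohorts cannot be told apart from a difference between tumours. Mice were killed when the tumour-bearing animals were severely cachectic or the tumour passed a size limit, so disease stage was not fixed by time. RNA was taken from the diaphragm, the main muscle of breathing, and from the tibialis anterior, a fast muscle of the lower leg. Per muscle there were 17 PDX arrays (3, 5, 5 and 4 in cohorts 1 to 4) and 12 sham arrays (3 in each cohort). Nothing in the labels says that each array is a separate mouse, so a p-value here reflects only how far these samples scatter, which may be technical.

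The Z-disc is the plate at which the thin filaments of neighbouring sarcomeres meet, held together by alpha-actinin. Actn2 encodes the alpha-actinin of all fibres and of the heart, and Actn3 that of fast glycolytic fibres. Csrp3 encodes muscle LIM protein, a Z-disc and nuclear protein of heart and slow muscle that takes part in the response to stretch. Ankrd1 (CARP), Ankrd2 (Arpp) and Ankrd23 (DARP) are the muscle ankyrin repeat proteins, which bind titin in the I-band, can move to the nucleus, and are known for rising in stretched, overloaded or injured muscle. Xirp1 (Xin) and Xirp2 encode actin-binding repeat proteins of cell attachment sites, the myotendinous junction and repair zones, and Xirp1 is known to rise in damaged fibres.

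On the mouse build GRCm38.p6, Csrp3 lies on chromosome 7 (chr7:48830398-48848051), Ankrd23 on chromosome 1 (chr1:36530193-36536556), Xirp1 on chromosome 9 (chr9:120013755-120023598), Xirp2 on chromosome 2 (chr2:67446000-67526620) and Actn2 on chromosome 13 (chr13:12269426-12340732). The other 3 share chromosome 19 without being neighbours: Actn3 (chr19:4861216-4877909), Ankrd1 (chr19:36111965-36119844) and Ankrd2 (chr19:42035917-42045111). The RefSeq promoter table of that build matched 6 of the 8 symbols with 8 start sites. The sequence before the gene is printed for Csrp3, Ankrd1 and Ankrd2, which form 2 of the 6 pairs whose levels correlated over the arrays of a muscle (Csrp3 with Ankrd2, and Ankrd1 with Ankrd2). It is written 5′ to 3′ on the gene's strand (minus for Csrp3 and Ankrd1, plus for Ankrd2), from chr7:48848052-48848301, chr19:36119845-36120094 and chr19:42035777-42035916. Capitals mark the E-box CANNTG, the hexamer bound by myogenic bHLH factors, and CATTCC, the TEAD site, which reads GGAATG on the other strand.
Csrp3: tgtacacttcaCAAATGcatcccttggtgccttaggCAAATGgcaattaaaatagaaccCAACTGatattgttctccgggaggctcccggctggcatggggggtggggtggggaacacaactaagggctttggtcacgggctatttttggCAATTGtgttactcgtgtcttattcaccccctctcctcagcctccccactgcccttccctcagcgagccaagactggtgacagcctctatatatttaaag
Ankrd1: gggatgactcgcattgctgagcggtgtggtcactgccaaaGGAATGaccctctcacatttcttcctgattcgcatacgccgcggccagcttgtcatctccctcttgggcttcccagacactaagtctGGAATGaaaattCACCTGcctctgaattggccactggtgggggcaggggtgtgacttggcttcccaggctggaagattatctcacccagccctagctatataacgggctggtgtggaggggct
Ankrd2: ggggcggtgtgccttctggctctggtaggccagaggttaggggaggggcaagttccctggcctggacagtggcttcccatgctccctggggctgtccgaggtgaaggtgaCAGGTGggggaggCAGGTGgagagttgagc
Csrp3 held 4 E-boxes in its 250 bases. Ankrd1 held 2 copies of CATTCC and 1 E-box, and the 2 motifs did not overlap. For Ankrd2 the 140 bases before the annotated gene are shown, with 2 E-boxes; its full 250-base window before the listed start held 3 E-boxes and 1 TATAAA. Searched on both strands, 66.2% of all 32851 mouse windows of 250 bases held an E-box, 12.6% CATTCC and 12.4% TATAAA. A CArG box was found in 1.47% of windows and in none of the 8 windows of the members, and a MEF2 site in 2.92% and, among members, in that of Xirp2. These are matches of letters and not measured binding sites.

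All values are log2 expression values as the authors deposited them, and a difference of 1 is a doubling. The values of different genes come from different probes, so levels are compared only within a gene. A gene is said to have passed when its adjusted p from limma was under 0.05 (Benjamini-Hochberg over all 23185 named genes, two-sided), and differences are means over the 4 cohorts of the within-cohort difference. The median signal of an array was 3.702 to 3.862. The mean over 6 skeletal muscle markers was 9.92 to 11.22 in PDX diaphragm and 10.58 to 11.29 in sham diaphragm, and 11.43 to 11.60 in PDX tibialis anterior and 11.40 to 11.60 in sham tibialis anterior. Many diaphragm arrays also carried liver RNA: the mean over 10 hepatocyte markers was 3.83 to 11.12 in the 17 PDX arrays and 3.86 to 10.68 in the 12 sham arrays, and lay more than 1 above the median of all arrays in 9 and 6 of them. In the tibialis anterior this mean was 3.29 to 6.32 in PDX and 3.12 to 5.43 in sham, and it passed the same limit on 2 of 4 PDX arrays of cohort 4 and 1 of 3 sham arrays of cohort 3, which stayed in every fit unless stated. No pair of arrays held identical values. In whole tissue, fewer cells of a type and less RNA per cell cannot be told apart, which holds for every result below.

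In the sham mice, the muscles differed most in Ankrd1 and Actn3, both lower in the diaphragm. Of the 8 members, 5 passed and all 5 were lower in the sham diaphragm than in the sham tibialis anterior, in a comparison where 39.7% of all genes passed (15.2% higher and 24.5% lower). The median difference of the 8 was -0.45, and that of all genes -0.09. The other 3 members, Csrp3, Ankrd2 and Actn2, did not pass.

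Actn3 was 8.31 at the lowest, 9.52 at the median and 10.56 at the highest in the 12 sham diaphragm arrays, against 11.36, 11.63 and 11.80 in the 12 sham tibialis anterior arrays. All 12 diaphragm arrays lay below every tibialis anterior array. The difference was -1.94 (SE 0.17), 3.83-fold lower in the diaphragm, with a limma adjusted p of 5.01e-13. The tibialis anterior values lie close to the brightest signal of those arrays (11.84 to 12.24), and whether the signal still scales there was not tested. The fibre type markers differed alongside: of 8 slow fibre genes all 8 were higher in the sham diaphragm (list mean 8.87 to 9.87 per array, against 4.32 to 5.33 in the sham tibialis anterior), and of 8 fast fibre genes 5 were lower (10.40 to 11.19, against 11.37 to 11.58). Their part in the Actn3 result was not tested.

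Ankrd1, the cardiac ankyrin repeat protein, also induced by stretch in skeletal muscle, was 4.93, 6.02 and 7.60 (lowest, median and highest) in sham diaphragm, against 7.13, 7.96 and 9.54 in sham tibialis anterior. Of the 12 diaphragm arrays, 11 lay below every tibialis anterior array, and within each of the 4 cohorts the muscles did not overlap. The difference was -1.89 (SE 0.31), 3.71-fold lower in the diaphragm, with a limma adjusted p of 2.19e-06. Without the diaphragm arrays that carry liver RNA, which leaves 1 sham diaphragm array each in cohorts 1 and 3, it was -2.12. The array left in cohort 3 holds the lowest sham value of Ankrd1 (4.93). For Actn3 the difference was -2.02 in this fit.

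Xirp2 was 9.34, 9.87 and 10.30 in sham diaphragm, against 10.15, 10.43 and 10.65 in sham tibialis anterior, and 9 of the 12 diaphragm arrays lay below every tibialis anterior array. It was lower by -0.57 (SE 0.11, limma adjusted p 2.88e-05). Xirp1 also passed (-0.58, SE 0.19, adjusted p 0.0119), but the difference rests on 1 cohort. In cohort 3 Xirp1 was 7.29, 7.37 and 7.35 in sham diaphragm, against 9.90, 9.25 and 8.57 in sham tibialis anterior, a difference of -1.90. In cohorts 1, 2 and 4 the differences were -0.19, -0.08 and -0.14, and without cohort 3 Xirp1 did not pass (-0.14, adjusted p 0.611). Ankrd23 differed little (-0.22, SE 0.08, limma adjusted p 0.0288), with ranges of 11.10 to 11.60 in sham diaphragm and 11.34 to 11.82 in sham tibialis anterior. Like those of Actn3, its tibialis anterior values lie close to the brightest signal of those arrays. The calls of Xirp1 and Ankrd23 were lost without the liver-bearing diaphragm arrays, both with cohort 1 kept (-0.56, adjusted p 0.11, and -0.15, adjusted p 0.224) and with it dropped (adjusted p 0.0896 and 0.29). That of Ankrd23 was also lost without cohort 1 alone (adjusted p 0.172), without cohort 2 alone and with all arrays quantile normalized together (-0.09, adjusted p 0.402). With the 4 cohort differences as replicates both calls were lost.

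Csrp3 and Ankrd2 gave differences between the sham muscles of either sign. Csrp3 differed by -0.47, 0.46, -1.35 and 1.42 in cohorts 1 to 4, a mean of 0.02 (SE 0.26, limma adjusted p 0.968). Ankrd2 differed by -1.22, 0.10, -1.41 and 1.16, a mean of -0.34 (SE 0.27, adjusted p 0.326). Without cohort 4 it passed (-0.84, adjusted p 0.0498). The cohort means of Ankrd2 were 7.24, 7.13, 6.66 and 6.98 in sham diaphragm, against 8.47, 7.03, 8.07 and 5.82 in sham tibialis anterior, where they lay farther apart. Actn2 was 10.64, 10.89 and 11.10 in sham diaphragm and 10.46, 10.70 and 11.13 in sham tibialis anterior (difference 0.12, SE 0.08, adjusted p 0.241).

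**Figure D1:**
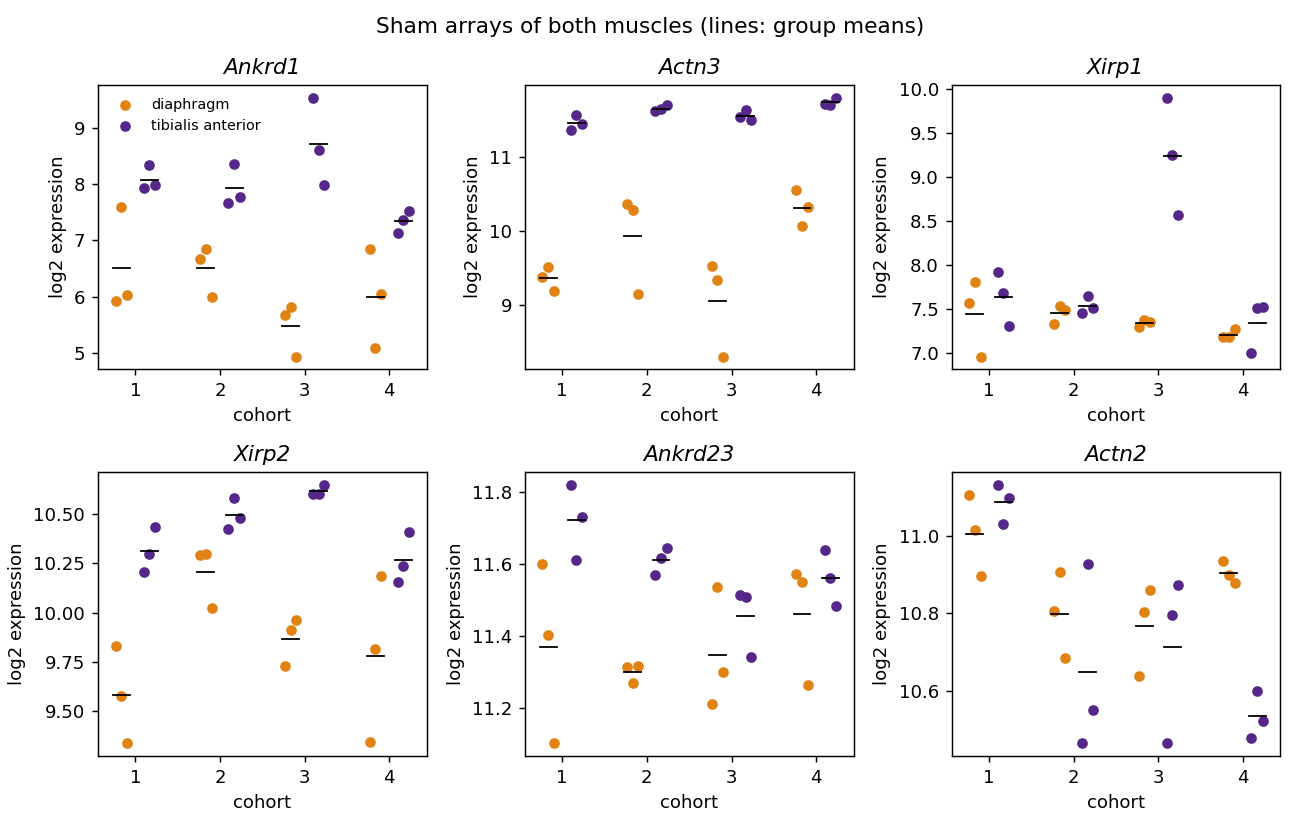
Log2 expression of 6 members on every sham array (vertical axes, each with its own scale) by cohort, with the diaphragm in orange left of the tibialis anterior in purple and lines at the group means of 3 arrays. Actn3 shows no overlap between the muscles, Ankrd1 is lower in the diaphragm of every cohort, and Xirp1 stands apart in the tibialis anterior of cohort 3 alone.

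In the tibialis anterior of the tumour-bearing mice, by the mean over cohorts, Csrp3 fell, Xirp2 and Actn2 fell by less, and Actn3 rose slightly. That is 4 of 8 members, 1 higher and 3 lower, in a comparison where 12.8% of all genes passed (6.32% higher and 6.53% lower). The median difference of the 8 was -0.13 and that of all genes -0.01. None of the 3 ankyrin repeat genes passed in this muscle, nor did Xirp1.

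Csrp3 was 6.54, 6.59 and 5.81 in the PDX tibialis anterior of cohort 1, against 8.94, 9.36 and 9.11 in its shams. In cohort 3 the PDX arrays held 8.45, 6.75, 8.29, 6.94 and 8.17, against 8.59, 8.82 and 9.69 in the shams. PDX lay wholly below sham in these 2 cohorts. In cohort 2 the PDX arrays held 7.15, 7.29, 8.55, 6.89 and 6.23 and the shams 6.98, 9.27 and 7.79; in cohort 4 the PDX arrays held 7.28, 6.33, 8.38 and 6.97 and the shams 6.983, 6.739 and 6.997. The groups overlap in both, and cohort 4 ran the other way. The cohort differences were -2.82, -0.79, -1.31 and 0.33, and their mean of -1.15 (SE 0.25) is 2.22-fold lower in PDX, with a limma adjusted p of 0.00239. It passed in all 29 fits that left out 1 array, but not without cohort 1, where it was -0.59 (adjusted p 0.308).

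Xirp2 was 9.39 at the lowest, 10.11 at the median and 10.42 at the highest in PDX tibialis anterior, against 10.15, 10.43 and 10.65 in sham, and 11 of the 17 PDX arrays lay below every sham array. The groups did not overlap in 3 of 4 cohorts, but only narrowly so in cohort 2 (highest PDX 10.4224, lowest sham 10.4247). The cohort differences were -0.62, -0.29, -0.73 and -0.03, all of 1 sign. Their mean was -0.42 (SE 0.07, limma adjusted p 0.000273), 1.34-fold lower in PDX. It missed the threshold in 1 of the alternatives run, the fit with the 4 cohort differences as the only replicates (adjusted p 0.0731).

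Actn2 was 10.15, 10.52 and 10.89 in PDX tibialis anterior, against 10.46, 10.70 and 11.13 in sham, and 8 of 17 PDX arrays lay below every sham array. The cohort differences were -0.52, -0.29, -0.09 and 0.04. The mean difference was -0.22 (SE 0.07, limma adjusted p 0.0474), and the call was lost in 21 of 29 fits with 1 array removed (adjusted p 0.0193 to 0.114). It was also lost in 8 of 15 alternatives, among them the fits without cohort 1, 2 or 3. Actn3 was 11.60, 11.79 and 11.97 in PDX, against 11.36, 11.63 and 11.80 in sham, with 6 of 17 PDX arrays above every sham array. Its mean difference was 0.17 (SE 0.05, limma adjusted p 0.016), 1.12-fold higher in PDX, close to the top of the signal range. The Actn3 call was lost when cohort 1, 2 or 3 was left out and with all 58 arrays in 1 fit (adjusted p 0.62). Without the 3 tibialis anterior arrays that passed the limit for liver RNA Actn3 gave 0.16 and did not pass (adjusted p 0.0591), while Csrp3 (-1.17, adjusted p 0.00877), Xirp2 (-0.42, adjusted p 0.00215) and Actn2 (-0.24, adjusted p 0.0494) passed.

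Ankrd2 in this muscle was lower in PDX in cohort 1 and higher in cohort 4. In cohort 1 it was 5.91, 6.15 and 5.67 in PDX, against 8.30, 8.64 and 8.46 in sham. In cohort 4 it was 6.90, 6.22, 7.74 and 6.33 in PDX, against 5.90, 5.76 and 5.79 in sham. The groups do not overlap in either cohort and lie in opposite order. The cohort differences were -2.56, 0.03, -0.0004 and 0.98, and the mean was -0.39 (95% interval -0.93 to 0.16, limma adjusted p 0.431). Ankrd1 was 6.47, 8.03 and 11.70 in PDX and 7.13, 7.96 and 9.54 in sham; its mean difference was 0.34 (interval -0.15 to 0.83, adjusted p 0.436), of which cohort 3 gave 1.13 and the others 0.01 to 0.16. Xirp1 (0.11, interval -0.31 to 0.52, adjusted p 0.84) and Ankrd23 (-0.04, interval -0.16 to 0.08, adjusted p 0.793) did not pass.

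Other cells of the muscle moved alongside. All 7 fibroblast markers and 6 of 7 tendon markers were lower in PDX tibialis anterior; the fibroblast list mean was 4.88 to 6.99 in PDX and 7.11 to 7.86 in sham, and the tendon mean 3.53 to 5.47 in PDX and 4.76 to 6.73 in sham. Neither list was at background as a whole, though in PDX 3 of 7 tendon genes lay below the all-probe-set median. Their part in the fall of Xirp2 and Csrp3 was not tested. The mean over the 8 slow fibre genes, the fibres in which Csrp3 is known to be higher, was 4.16 to 4.94 in PDX and 4.32 to 5.33 in sham.

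**Figure D2:**
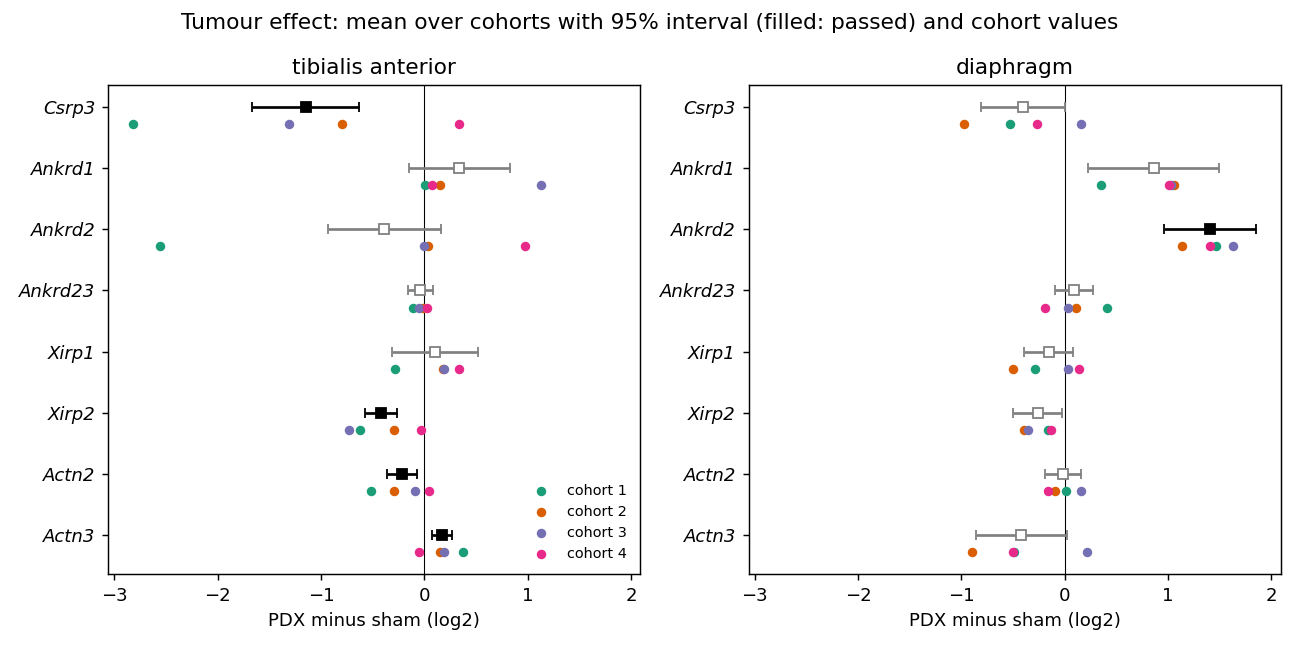
PDX minus sham (log2, horizontal axis) for the 8 members in the tibialis anterior and the diaphragm. Squares are means over 4 cohorts with 95% intervals, filled where the adjusted p was under 0.05, and coloured points are the cohorts. Csrp3, Xirp2, Actn2 and Actn3 are filled in the tibialis anterior and Ankrd2 alone in the diaphragm, where its 4 cohort points lie close together.

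In the diaphragm of the tumour-bearing mice, Ankrd2 rose in every cohort, and it was the member that passed. That is 1 of 8 members, higher, where 12.5% of all genes passed (5.89% higher and 6.58% lower), so the share of members called equals the background of the comparison. The median difference of the 8 was -0.09 and that of all genes was close to 0.

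Ankrd2 was 8.31, 9.02 and 8.81 in the PDX diaphragm of cohort 1, against 7.59, 7.50 and 6.64 in its shams. In cohort 2 the PDX arrays held 8.53, 8.16, 6.96, 8.16 and 9.52, against 6.95, 7.30 and 7.14 in the shams. In cohort 3 the PDX arrays held 8.68, 9.11, 8.54, 7.34 and 7.76, against 7.06, 6.33 and 6.59 in the shams. PDX lay wholly above sham in cohorts 1 and 3, and in cohort 2 a single PDX array fell among the shams. In cohort 4 the PDX arrays held 8.40, 9.05, 7.73 and 8.38, against 6.99, 6.61 and 7.35 in the shams, again with no overlap. Of all 17 PDX diaphragm arrays, 15 lay above the highest of the 12 shams. The cohort differences were 1.47, 1.14, 1.63 and 1.41, and the mean of 1.41 (SE 0.22) is 2.66-fold higher in PDX, with a limma adjusted p of 0.000104.

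The call of Ankrd2 held in all 15 alternatives and in every fit that left out 1 array. Without the arrays that carry liver RNA, the difference was 1.58. That fit lacks cohort 1, because no PDX array of it is left, and keeps 1 sham array in cohort 3. Of 6 skeletal muscle markers 1 was lower in PDX and none higher. Of 5 macrophage markers 4 were higher in PDX diaphragm (list mean 6.42 to 7.99, against 5.91 to 6.80 in sham), and their part in the result was not tested. The cardiac list, whose Tnnt2 (0.71) and Myl4 (0.35) rose in PDX, had means of 3.38 to 4.02 in PDX and 3.52 to 3.78 in sham, with 6 of its 8 genes below the median of all probe sets in both.

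Ankrd1, the ankyrin repeat protein best known from the heart, was 5.89, 6.74 and 9.95 in PDX diaphragm, against 4.93, 6.02 and 7.60 in sham. The groups overlap in 3 of the 4 cohorts, and 3 of 17 PDX arrays lay above every sham. The cohort differences were 0.35, 1.06, 1.03 and 1.01, with a mean of 0.86 (SE 0.31, 95% interval 0.23 to 1.496) and a limma adjusted p of 0.0675, so it did not pass. It passed in 4 of 15 alternatives (adjusted p 0.0223 to 0.235 over all 15) and in 4 of 29 fits with 1 array removed (0.0353 to 0.141). Ankrd23, the third of the family, was 10.78, 11.47 and 11.98 in PDX and 11.10, 11.32 and 11.60 in sham (difference 0.09, interval -0.10 to 0.28, adjusted p 0.634).

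Csrp3 was 6.96, 7.85 and 8.76 in PDX diaphragm and 6.70, 8.33 and 9.32 in sham, and the groups overlapped in every cohort (difference -0.40, interval -0.81 to 0.002, limma adjusted p 0.215). Xirp2 (-0.26, interval -0.50 to -0.02, adjusted p 0.167) and Actn3 (-0.42, interval -0.86 to 0.03, adjusted p 0.251) had negative means, and Actn3 passed when cohort 3 was left out (-0.63, adjusted p 0.0452). That was the only 1 of 15 alternatives in which Actn3 passed. Over all 15 its difference ran from -0.63 to 0.003. Xirp1 (-0.15, interval -0.39 to 0.09) and Actn2 (-0.02, interval -0.19 to 0.16) did not pass.

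**Figure D3:**
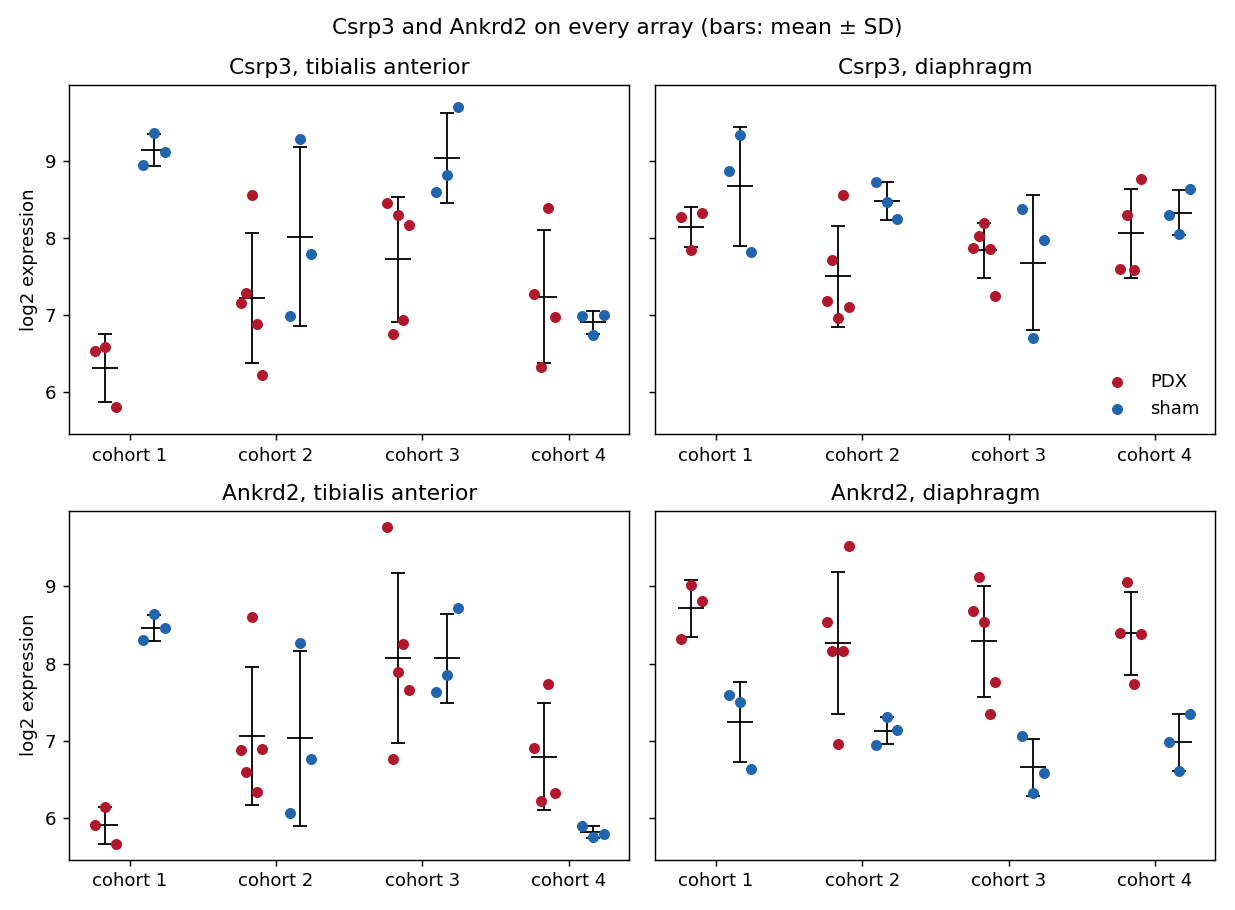
Csrp3 (top) and Ankrd2 (bottom) on every array (log2 expression, vertical axis) by cohort, with PDX in red left of sham in blue and bars at mean ± SD of 3 to 5 arrays. In the tibialis anterior the sham levels of both genes differ between cohorts and are lowest in cohort 4; in the diaphragm Ankrd2 of PDX lies about 1.14 to 1.63 above sham in each cohort.

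Whether the tumour effect differed between the muscles was tested as the diaphragm effect minus the tibialis anterior effect. Ankrd2 passed, higher, as 1 of 8 members, where 6.33% of all genes passed (3.66% higher and 2.67% lower). The difference was 1.80 (SE 0.36, limma adjusted p 0.000762), made of a diaphragm effect of 1.41 and a tibialis anterior effect of -0.39. By cohort it was 4.03, 1.103, 1.63 and 0.43, all of 1 sign but largest in cohort 1. It did not pass without cohort 1 (1.05, adjusted p 0.234) or without the liver-bearing diaphragm arrays (1.25, adjusted p 0.286), a fit that lacks cohort 1 as well, so that the liver RNA cannot be told apart from that cohort there. Csrp3 had a difference of 0.75 (interval 0.07 to 1.42, adjusted p 0.206), Actn3 of -0.59 (interval -1.04 to -0.13, adjusted p 0.118; without cohort 3 it passed, at -0.79 and adjusted p 0.0171) and Ankrd1 of 0.52 (interval -0.29 to 1.34, adjusted p 0.55). So the fall of Csrp3 in the tibialis anterior was not shown to differ from its value in the diaphragm. For Actn3 the difference between the muscles passed in 2 of 13 alternatives, without cohort 3 and with array weights. Over all 13 it ran from -0.79 to -0.10.

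The 4 cohorts were compared by a moderated F test of their effects. By limma, 0 of 8 members passed in either muscle, where 0.0129% of all genes passed in the tibialis anterior and 0.00431% in the diaphragm. At an unadjusted p under 0.05 there were 4 members in the tibialis anterior, where 7.33% of all genes were, and 0 in the diaphragm, where 7.44% were. The lowest were Ankrd2 (unadjusted p 0.000969, adjusted p 0.277) and Csrp3 (0.00244, adjusted p 0.326), both in the tibialis anterior. For both genes the sham levels differed between the cohorts as well. Csrp3 averaged 6.31 ± 0.44 in PDX and 9.14 ± 0.21 in sham tibialis anterior of cohort 1 (SD, n = 3 each), and 7.24 ± 0.86 in PDX (n = 4) and 6.91 ± 0.15 in sham (n = 3) of cohort 4. Ankrd2 averaged 5.91 ± 0.24 in PDX and 8.47 ± 0.17 in sham of cohort 1, and 6.80 ± 0.69 in PDX and 5.82 ± 0.08 in sham of cohort 4. The authors' sources used here do not state whether the cohorts were hybridised or normalized together, and a batch that follows the cohorts cannot be told apart from them.

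Pairs of members were also compared within groups. Each array's deviation from the mean of its own cohort and treatment was taken, so that tumour and cohort differences drop out, and the 28 pairs of members were correlated over the 29 arrays of each muscle. Of these 56 correlations, 6 passed after Benjamini-Hochberg adjustment of permutation p-values for both Pearson's r and Spearman's rho, 2 in the tibialis anterior and 4 in the diaphragm, all positive. How often other pairs of genes correlate over these arrays was not tested, so the correlations are not called particular to the members. In the tibialis anterior, Csrp3 went with Ankrd2 (r = 0.80, permutation p 0.00022, adjusted 0.00756; rho = 0.73, adjusted 0.0241) and with Actn2 (r = 0.77, permutation p 0.00027, adjusted 0.00756; rho = 0.74, adjusted 0.0241). Without the 2 arrays farthest from the median of Csrp3, r was 0.71 and 0.69.

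In the diaphragm, Ankrd1 went with Ankrd2 (r = 0.69, permutation p 0.00156, adjusted 0.0146; rho = 0.56, adjusted 0.0479; r = 0.54 without the 2 farthest arrays). Ankrd2 went with Ankrd23 (r = 0.70, permutation p 0.00089, adjusted 0.00997; rho = 0.65, adjusted 0.0284; r = 0.65 without the 2 farthest). Actn2 went with Xirp1 (r = 0.75, permutation p 0.00048, adjusted 0.00896; rho = 0.63, adjusted 0.0284; r = 0.60) and with Xirp2 (r = 0.69, permutation p 0.00073, adjusted 0.00997; rho = 0.60, adjusted 0.0284; r = 0.56). The share of liver RNA also varies between diaphragm arrays of a group. Over the 12 arrays without it, in 5 groups of at least 2, Ankrd1 with Ankrd2 gave r = 0.91 (rho = 0.89, permutation p 0.00319 for each). Actn2 gave r = 0.44 with Xirp1 (permutation p 0.496) and 0.27 with Xirp2 (permutation p 0.6). Ankrd2 with Ankrd23 gave r = 0.78 (permutation p 0.218). These p-values are unadjusted, and groups this small allow few rearrangements. A permutation p could hardly fall below 0.00319 here, and the high ones do not show that a correlation is absent.

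**Figure D4:**
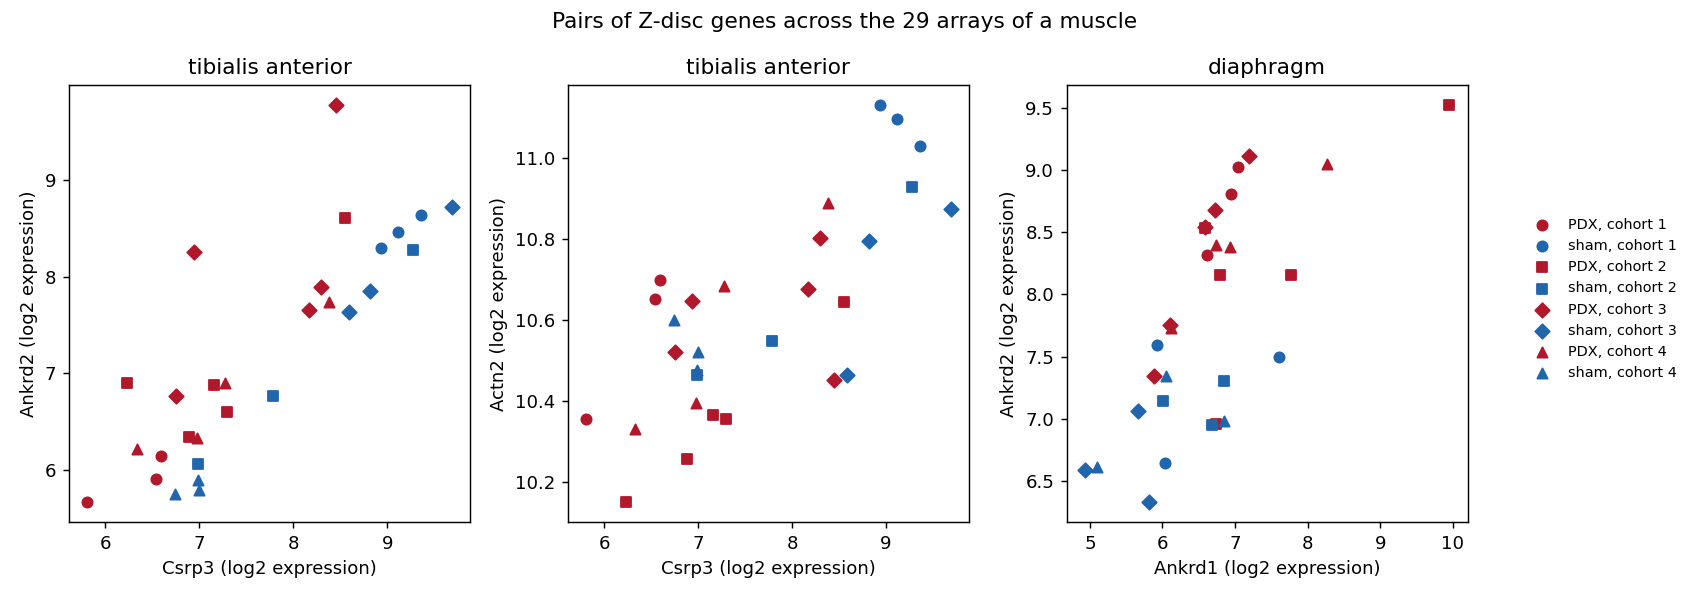
Levels of 3 pairs of members (log2 expression on both axes) over the 29 arrays of a muscle, with PDX in red and sham in blue and a marker shape for each cohort. The plotted levels hold the cohort and tumour differences, whereas the tested correlations used deviations from group means. Csrp3 rises with Ankrd2 and with Actn2 in the tibialis anterior, and Ankrd1 with Ankrd2 in the diaphragm, where 15 of 17 PDX arrays lie above every sham in Ankrd2.

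Of the other Z-disc genes, a list of 27 measured genes for titin's neighbours, the cross-linkers and their chaperones, 8 passed in PDX tibialis anterior (2 higher and 6 lower) and 5 in PDX diaphragm (1 higher and 4 lower). Among all genes, 12.8% passed in the tibialis anterior and 12.5% in the diaphragm. The list medians were -0.09 and -0.04. In the tibialis anterior Cryab, the small heat shock protein that guards desmin, fell by 0.58 (SE 0.11, limma adjusted p 0.00072), Myoz2, the slow-fibre calcineurin-binding myozenin, by 0.55 (SE 0.17, adjusted p 0.0343), Fhl1, a LIM protein of the titin spring, by 0.48 (SE 0.12, adjusted p 0.00623) and Myoz3, the fast-fibre myozenin, by 0.36 (SE 0.10, adjusted p 0.0154). Myoz2 was lower in PDX in cohorts 1 to 3 (-1.46, -0.75 and -0.67) but higher in cohort 4 (0.69). In the diaphragm Capn3, the muscle calpain that sits on titin, fell by 0.71 (SE 0.13, adjusted p 0.000442), Myoz3 by 0.68 (SE 0.10, adjusted p 0.000106) and Ldb3, which binds alpha-actinin, by 0.34 (SE 0.10, adjusted p 0.0334). Bag3, a co-chaperone that clears damaged filamin, fell by 0.33 there (SE 0.08, adjusted p 0.00978). Capn3, Myoz3 and Ldb3 were lower in both muscles, and Des, the intermediate filament that ties Z-discs together, was higher in both (0.16 in the tibialis anterior and 0.26 in the diaphragm). Des was named after its values were seen. In the difference between the muscles, 1 gene was higher (Myoz2, 0.73, adjusted p 0.0219) and 1 lower (Mypn, -0.39, adjusted p 0.0371). Of all genes, 6.33% passed there.

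Between the sham muscles, 20 of the 27 Z-disc partners differed, 4 higher and 16 lower in the diaphragm, with a median of -0.35. Of all genes, 39.7% passed there, 15.2% higher and 24.5% lower. Myoz2 was the most different (2.00, SE 0.16, limma adjusted p 9.9e-15), followed by Pdlim1 (1.57, SE 0.11), both higher in the sham diaphragm. Pdlim3 (-1.04, SE 0.09) and Myoz1 (-0.98, SE 0.09), a fast-fibre myozenin, were lower.

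A list of 31 genes that read or relay mechanical load (integrin adhesions, the Hippo pathway with YAP and TEAD, and SRF with its MRTF cofactors) had 30 measured. In PDX tibialis anterior 3 were higher and 6 lower, and in PDX diaphragm 3 higher and 2 lower, with medians of 0.0001 and 0.05. The shares of all genes that passed were 12.8% and 12.5%. In the tibialis anterior Mrtfa, the actin-sensing cofactor of SRF, fell by 0.81 (SE 0.12, limma adjusted p 3.55e-05), and Itgb1, the common integrin beta chain, by 0.27 (SE 0.07, adjusted p 0.00553). Itga7, the laminin-binding integrin of muscle, rose there by 0.42 (SE 0.07, adjusted p 8.07e-05) and Amotl2, a YAP-binding angiomotin, by 0.32 (SE 0.09, adjusted p 0.0115). In the diaphragm Ccn2, a YAP target also made by fibroblasts, rose by 0.54 (SE 0.12, adjusted p 0.00436) and Zyx, zyxin of actin stress sites, by 0.34 (SE 0.09, adjusted p 0.0117), while Smpx, a small stretch-responsive muscle protein, fell by 0.42 (SE 0.11, adjusted p 0.0103) and Srf by 0.33 (SE 0.08, adjusted p 0.00911). Srf and Smpx were lower in both muscles. The tumour effect differed between the muscles for Mrtfa (0.83, adjusted p 0.000177) and Itgb1 (0.40, adjusted p 0.00606), where 6.33% of all genes passed. Between the sham muscles 10 of the 30 were higher and 5 lower in the diaphragm, where 15.2% of all genes were higher and 24.5% lower. The differences were led by Mrtfa (-0.80) and Abra (-0.80), a muscle activator of MRTF, and Ccn2 (0.78) and Mrtfb (-0.61).

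For each member the genes with the most similar pattern were sought, as the smallest root mean square difference between centred means over the 16 groups. This is a description, and 8 of the groups are sham and 8 PDX of the same 2 muscles. Actn3 lay closest to Mylk2, Gpd2 and Pvalb (root mean square 0.22, 0.25 and 0.26, against 1.17 for the variation of Actn3 itself). Xirp1 lay closest to Klhl40, Atf3 and Ppp1r15a (0.29, 0.31 and 0.33, against 0.67). Xirp2 lay closest to Ibtk, Ilrun and Nfatc3 (0.14 each, against 0.35). For Ankrd1 these were Eya4, Ampd3 and Gadd45b (0.53, 0.57 and 0.57, against 1.06), for Csrp3 Lmcd1, Dnaja4 and Enah (0.49, 0.51 and 0.54, against 0.74), and for Ankrd2 Clec4n, Vcam1 and P2ry13 (0.64, 0.66 and 0.67, against 0.88). The distances of the last 2 are most of the members' own variation, so no gene followed Csrp3 or Ankrd2 closely over the 16 groups. Ankrd23 and Actn2 varied by only 0.15 and 0.20, and their nearest genes (Oaz1-ps, Ascc2 and Vps26b, and Hps4, Hspb7 and Sh3yl1) lay within 0.08 to 0.12.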

How the data were processed

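Biotin-labelled total RNA was hybridised to Affymetrix arrays, per the labels' protocols. For 25206 probe sets on each of 58 arrays, the authors deposited log2 values made with RMA; the submitters' processing notes name affy 1.36.1 and R 2.15.1. RMA subtracts background, sets the arrays to 1 distribution and summarises probes on the log2 scale, which compresses folds at low and at very bright signal. Not given in the sources used here are the build, the probe set definitions and any separate normalization of cohorts. Probe sets were named through the platform annotation: 23185 had a symbol and 2021 had none, with no symbol repeated.

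Groups came from the labels (muscle, cohort, treatment). R 4.3.3 and limma 3.58.1 (lmFit, eBayes) gave the tests. Fits of a muscle had 1 mean for every cohort and treatment; the effect averages PDX minus sham over 4 cohorts with equal weight. Differences between muscles came from 1 fit of all 58 arrays with 16 group means. Adjusted p-values (Benjamini-Hochberg) cover 23185 genes, with no filter on dim genes, and the threshold was 0.05. The script was tested on simulated data. Correlations used 100000 permutations within groups. Alternatives changed the variance prior, a filter on dim genes, array scaling, array weights, the cohorts and arrays entered, the model and the replication unit. Quantile normalization of all arrays together and 2 settings that leave out liver-bearing arrays were added after the data were seen.

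The members and gene lists were chosen with earlier results of these data known. Named genes were all 8 members, up to 4 genes of each list per comparison with the largest difference past the threshold, and 3 genes most like each member. Depth does not apply to arrays, and the number of arrays limits precision.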

Additional observations from a re-analysis of the deposited data

Results flagged for a closer look

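Dixon's criterion was applied to each member in each group of 4 or 5 arrays, which gave 48 tests. In 4 of them a single array lay far from the others, and chance gives about 1 in 20. Groups of 3 arrays, among them every sham group, were not tested. Ankrd2 was 8.607 in the tibialis anterior of PDX replicate 3 of cohort 2, where the other 4 arrays held 6.341 to 6.901. Xirp1 was 8.966 in the tibialis anterior of PDX replicate 3 of cohort 4, against 7.182 to 7.329 in the other 3. Xirp2 was 8.903 in the diaphragm of PDX replicate 4 of cohort 3, against 9.563 to 9.784 in the others. Actn3 was 9.31 in the diaphragm of PDX replicate 3 of cohort 4, against 9.94 to 10.009 in the others. Both of these diaphragm arrays carried liver RNA, with hepatocyte marker means of 11.121 and 10.813, and its part in the low values was not tested.

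The tumour effect on Ankrd2 differed between the muscles by a direct test, with a diaphragm effect minus tibialis anterior effect of 1.797 on the log2 scale. It was largest in cohort 1 (4.03) and smallest in cohort 4 (0.43). The call was lost in 3 of 13 alternatives: without cohort 1, without the liver-bearing diaphragm arrays, and with the 4 cohort differences as replicates.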

How the results depend on the processing

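No result changed its sign while called. Leaving out 1 array at a time gave 3 to 4 members called in the tibialis anterior, 1 to 2 in the diaphragm, 1 to 2 for the difference between the muscles, 4 to 5 between the sham muscles and 0 to 0 for the cohort F tests; over all genes it gave 2522 to 3362, 2430 to 3047, 1253 to 1731 and 8358 to 9675, and 0 to 6 (tibialis anterior) and 1 to 7 (diaphragm) for the F tests. Of 4 members called in the tibialis anterior, 1 was called without cohort 1, 2 each without cohort 2, without cohort 3 and with both muscles in 1 fit, and 0 with the 4 cohort differences as replicates. In the diaphragm, 2 instead of 1 were called without dim genes, without cohort 3, with an additive cohort term, with both muscles in 1 fit and with the 4 cohort differences. For the difference between the muscles, 2 instead of 1 were called with array weights and without cohort 3, and 0 without cohort 1, without liver-bearing diaphragm arrays and with the 4 cohort differences. The fits without liver-bearing arrays also lack cohort 1, which has no PDX diaphragm array free of liver RNA, so they change 2 things at once. Every fit without liver-bearing diaphragm arrays keeps only 1 sham diaphragm array in cohort 3. Between the sham muscles 3 instead of 5 were called without liver-bearing diaphragm arrays, whether cohort 1 was dropped or kept, and with the 4 cohort differences. With array weights the F test called 1 member in the tibialis anterior, Ankrd2 (adjusted p 0.0418). Over all genes, 2979 in the tibialis anterior became 1426 without cohort 1 and 1122 with the 4 cohort differences. In the diaphragm, 2892 became 1501 and 1699 without cohorts 1 and 2, 654 without liver-bearing arrays and 1018 with the 4 differences. For the difference between the muscles, 1468 became 2690 with array weights, 531 and 705 without cohorts 1 and 2, 515 without liver-bearing arrays and 403 with the 4 differences. The 9210 between the sham muscles became 4366 without liver-bearing arrays and 5556 when cohort 1 was kept. Keeping cohort 1 and leaving out liver-bearing tibialis anterior arrays (3 instead of 4 members called) were chosen after seeing the data. Besides Actn2 in the tibialis anterior (call lost in 21 of 29 fits), single arrays decided other marginal calls. Ankrd1 in the diaphragm passed without PDX replicate 1 of cohort 2, PDX replicate 3 of cohort 4, sham replicate 2 of cohort 1 or sham replicate 1 of cohort 4 (adjusted p 0.0353 to 0.141 over 29 fits). Actn3 for the difference between the muscles passed without diaphragm PDX replicate 3 of cohort 3 or sham replicate 3 of cohort 2 (0.04 to 0.191 over 58 fits), and Ankrd23 between the sham muscles was lost without diaphragm sham replicate 3 of cohort 1, replicate 1 of cohort 3 or replicate 3 of cohort 4 (0.0153 to 0.0734). Fewer samples enter the fits that leave out arrays or cohorts; other causes were not tested.

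The labels do not say that equal replicate numbers mark 1 mouse, and the arrays did not meet the bar of a correlation over 0.1 in every pair, so the numbers were not used as pairs. Whether the muscles of a number come from 1 mouse was not settled by this. Of 29 same-numbered pairs across the muscles, 4 correlated over 0.1 in their deviations from group means, and 13 arrays correlated best with their own number, where 8 would with no pairing; of 12 sham and PDX pairs, 0 did in the tibialis anterior and 5 in the diaphragm. With the replicate number as a block, 2 members instead of 4 were called in the tibialis anterior, and the other counts of members stayed at 1, 1, 5 and 0. In the fits of 1 muscle this block tied sham and PDX arrays of a number, which cannot come from 1 mouse. Only in the comparisons of the muscles did it tie both muscles of a number.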

Other observations

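The tibialis anterior of cohort 3 stood apart in Xirp1 in PDX and sham mice alike. Its 8 arrays held 8.57 to 10.76 (median 9.31), against 6.99 to 8.97 (median 7.51) in the 21 arrays of the other cohorts, of which 1 lay above the lowest of cohort 3. The diaphragm of cohort 3 held 7.09 to 7.62, against 6.46 to 7.80 in the other cohorts. The genes closest to Xirp1 over the 16 group means, which hold this cohort 3 difference, were Klhl40, Atf3 and Ppp1r15a. The last 2 belong to the stress response of many cell types. Ankrd1 in the tibialis anterior was 7.99 to 11.70 (median 9.29) in cohort 3, against 6.47 to 8.94 (median 7.94) in the others. No cause was tested, and cohort and batch cannot be told apart.

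Single arrays held the extremes of several members at once. PDX replicate 1 of cohort 3 had the highest tibialis anterior values of Ankrd1 (11.70), Ankrd2 (9.77) and Xirp1 (10.76) and the lowest of Xirp2 (9.39). PDX replicate 5 of cohort 2 had the highest diaphragm values of Ankrd1 (9.95) and Ankrd2 (9.52), on an array with a hepatocyte marker mean of 3.83.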
